A study of Homo sapiens with 18 samples.

Results

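This report describes 9 genes of YAP/TEAD signalling, the transcriptional arm through which cells read mechanical cues, in ECV304 cells that were stimulated with interleukin-1β (IL-1β) with or without the drug aminaphtone. They are CCN1 (formerly CYR61), CCN2 (formerly CTGF), ANKRD1, AMOTL2, AJUBA, LATS2, YAP1, WWTR1 (the gene of TAZ) and TEAD1. The members were fixed by name, as array features annotated with that gene symbol and no other, and make up 9 of the 18377 genes so annotated. They were chosen with earlier results of these data known, so their shares beside those of all clusters are descriptions only. Each had exactly 1 such feature, a transcript cluster of an Affymetrix Human Gene 1.0 ST array, which sums the probes along a gene. All 9 passed the filter on low signal, and 17853 transcript clusters were tested in all.

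The data were 18 arrays in 6 groups of 3. Confluent cells, grown in 10% fetal bovine serum and kept in 1% serum for 24 h, received IL-1β at 100 IU/ml in every group. The control groups received medium in addition and the aminaphtone groups aminaphtone, a drug used for disorders of small blood vessels, at 6 μg/ml, and RNA was taken after 1, 3 or 6 h. Cells without IL-1β were not analysed here, so a difference between times is one between durations of stimulation, and time in culture cannot be told apart from it. Nothing in the labels says whether the 3 samples of a group came from separate cultures, so every p-value here rests on sample-to-sample spread that may be technical only. ECV304 is a single established line, labelled as endothelial with both endothelial and epithelial traits, and known in the field as a derivative of a bladder carcinoma line. Of 8 endothelial markers, 4 (PECAM1, TEK, KDR and ERG) lay below the filter and 1 above the median of all clusters. All 8 epithelial markers lay above the filter and 6 above the median. The keratins KRT7, KRT8 and KRT18 were at mean log2 signals of 11.36, 12.38 and 11.75, while CDH1 (6.53) and KRT19 (6.70) lay below the median. All 6 urothelial markers and all 6 of fibroblasts or smooth muscle also lay above the filter, with 3 and 2 of them above the median of all clusters. Of 3 haematopoietic markers 2 did, and PTPRC, the pan-leukocyte marker, was at 3.63. The endothelial label was thus borne out only in part, and the cells are called ECV304 cells here.

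YAP1 and TAZ are coactivators that carry no DNA-binding domain and act mainly through the TEAD transcription factors. In dense or slack cells the Hippo kinases, LATS2 among them, phosphorylate both proteins, which then stay in the cytoplasm. On stiff substrates, after spreading or when actin fibres are under tension, YAP1 and TAZ enter the nucleus and raise a set of target genes, of which CCN1, CCN2 and ANKRD1 are the most used readouts. AMOTL2 and LATS2 are themselves targets that feed back on the coactivators, and AJUBA is a LIM protein that binds LATS kinases at tense junctions. The mRNA of YAP1 or WWTR1 does not report the location or activity of the protein.

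TEAD factors bind a short element whose core is CATTCC, which reads GGAATG on the other strand. The 250 bases before the annotated start were searched for it in RefSeq's promoter windows of build GRCh38.p14, which held entries for 7 of the 9 genes and 10 starts. The windows of the 4 target or regulator genes with a match are shown because their levels carry the results below. They run 5′ to 3′ along the gene, with capitals marking each CATTCC or GGAATG.
CCN2: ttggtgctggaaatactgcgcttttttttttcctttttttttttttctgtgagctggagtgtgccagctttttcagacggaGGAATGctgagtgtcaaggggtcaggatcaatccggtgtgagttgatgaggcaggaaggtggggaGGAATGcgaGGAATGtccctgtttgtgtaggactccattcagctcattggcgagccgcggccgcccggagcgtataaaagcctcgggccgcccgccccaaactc
ANKRD1: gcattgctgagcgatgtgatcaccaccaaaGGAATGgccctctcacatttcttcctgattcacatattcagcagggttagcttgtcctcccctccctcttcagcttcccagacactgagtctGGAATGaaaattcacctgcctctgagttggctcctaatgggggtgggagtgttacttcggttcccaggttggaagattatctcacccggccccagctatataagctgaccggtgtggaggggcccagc
AMOTL2: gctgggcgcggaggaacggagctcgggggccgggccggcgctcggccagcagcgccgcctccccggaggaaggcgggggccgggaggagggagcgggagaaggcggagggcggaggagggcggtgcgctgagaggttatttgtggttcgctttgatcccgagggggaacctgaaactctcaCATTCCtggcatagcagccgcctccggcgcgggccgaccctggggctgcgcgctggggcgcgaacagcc
AJUBA: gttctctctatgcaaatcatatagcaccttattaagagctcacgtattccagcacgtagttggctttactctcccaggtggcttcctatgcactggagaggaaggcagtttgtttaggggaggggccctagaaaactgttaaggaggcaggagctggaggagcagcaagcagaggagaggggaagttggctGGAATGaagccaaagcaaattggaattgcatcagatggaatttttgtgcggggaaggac

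The CCN2 window (chr6:131951373-131951622, minus strand) held 3 matches, whose first bases lay 169, 104 and 95 bases before the start. ANKRD1 (chr10:90921088-90921337, minus strand) held 2, at 220 and 128 bases. AMOTL2 (chr3:134374448-134374697, minus strand) held 1 at 69 bases and AJUBA (chr14:22976843-22977092, minus strand) 1 at 59 bases, and the other annotated start of each held none. YAP1 held 1 match at 162 bases, while LATS2 and both WWTR1 starts held none. CATTCC or GGAATG occurred in 11.9% of all 35116 windows, at least 2 matches in 0.94% and at least 3 in 0.083%. Of 2 further motifs searched on both strands, the AP-1-like pattern TGANTCA, with N any base, matched in the ANKRD1 window alone. It matched there as TGATTCA, 195 bases before the start, against 6.57% of all windows. The CArG box of serum response factor was in none of the 10, against 1.16% of all windows. These are matches of letters and not shown to be bound here.

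The 18 arrays had median log2 signals between 6.93 and 7.06. The 1 h controls stood apart: their arrays correlated with each other at 0.913 to 0.971, against at least 0.976 within every other group. On the first principal component of the residuals, which held 57.6% of the residual variance, they scored -47.4, 42.9 and 4.49, while all other arrays lay between -23.7 and 16.9. Several of the 9 genes moved with this split. In replicate 2 of the 1 h control TEAD1 was at 8.37, YAP1 at 9.62, WWTR1 at 10.21 and ANKRD1 at 7.85, each the lowest of its group. AMOTL2 at 10.21 and AJUBA at 10.08 were the highest of theirs in the same array. The part of this array quality in the results was not tested, and several results that rest on these arrays are given with and without them.

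Between 1 and 3 h of IL-1β alone, 7 of the 9 genes passed the test (limma, adjusted p under 0.05), against 11.3% of all transcript clusters. The secreted targets CCN1 and CCN2, the feedback gene AMOTL2, the LIM protein gene AJUBA and the kinase gene LATS2 were lower at 3 h. WWTR1 and TEAD1, a coactivator and its DNA-binding partner, were higher. Over all clusters 7.07% were lower and 4.26% higher in that comparison. With aminaphtone 5 of 9 passed between 1 and 3 h, against 9.44% of all clusters: CCN1, CCN2, AMOTL2 and AJUBA were again lower and WWTR1 higher. Between aminaphtone and control at any single time none of the 9 passed in this fit, which ignores replicate numbers. With the replicate number as a block 3 of the 9 passed at 1 h, against 12.4% of all clusters, as given below. Between 3 and 1 h in the controls the block left 7 of the 9, against 12.6% of all clusters. These counts share arrays, since the comparisons of 3 h with 1 h and of 6 h with 1 h use the same 1 h arrays.

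**Figure D1:**
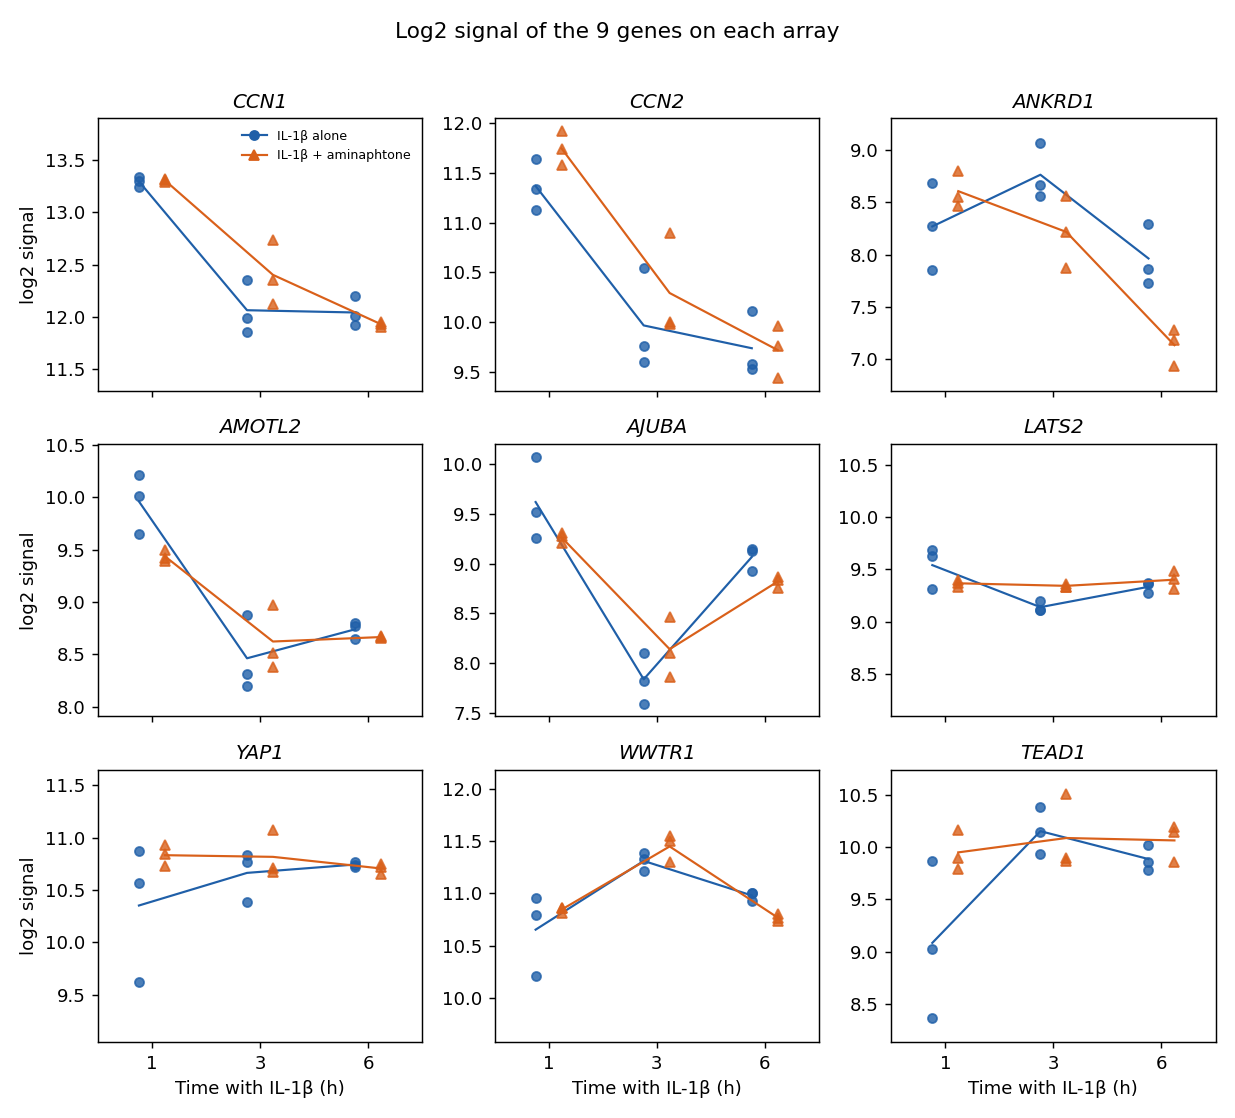
Log2 signal of each of the 9 genes (vertical axes, each with its own range) on each array, against the time with IL-1β (1, 3 and 6 h, drawn evenly spaced). Blue circles are IL-1β alone, orange triangles IL-1β with aminaphtone, and lines join the means of the 3 arrays. CCN1, CCN2, AMOTL2 and AJUBA are lower on every 3 h array than on any 1 h array of the same treatment, and the 1 h control arrays of TEAD1 run from 8.37 to 9.86.

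CCN1 encodes a secreted matrix-associated protein that signals through integrins. At 1 h its log2 signal was 13.25, 13.30 and 13.34 with IL-1β alone and 13.29, 13.31 and 13.32 with aminaphtone. At 3 h it was 11.99, 12.35 and 11.86 alone and 12.35, 12.73 and 12.12 with aminaphtone. Every 3 h array thus lay below every 1 h array. The difference between 3 and 1 h was -1.23 ± 0.14 (SE, n = 3 per group) alone, a 2.35-fold fall (limma adjusted p = 3.50e-05). With aminaphtone it was -0.90 ± 0.14 (limma adjusted p = 0.000602). In these bulk extracts a lower signal in every cell and a loss of it from some of the cells cannot be told apart.

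By 6 h CCN1 stood at 12.01, 12.20 and 11.92 alone and at 11.91, 11.95 and 11.93 with aminaphtone. The controls had not moved further, with a difference of -0.02 from 3 h and a 95% interval of -0.32 to 0.28. With aminaphtone the groups of 3 and 6 h did not overlap, but the difference of -0.47 missed the threshold (limma adjusted p = 0.224). The order of the group means ran from both 1 h groups, which overlapped, to the 4 later groups, each of which overlapped its neighbour in that order.

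CCN2, a secreted relative of CCN1 and the best known profibrotic target of the pathway, had the widest span of group means of the 9 genes, 2.03 log2 units. Its signals at 1 h were 11.34, 11.13 and 11.64 alone and 11.74, 11.58 and 11.92 with aminaphtone. The 3 h arrays read 9.60, 10.54 and 9.76 alone and 10.00, 10.90 and 9.98 with aminaphtone. In both groups replicate 2 was the highest array. CCN2 fell by 1.40 on the log2 scale between 1 and 3 h alone (2.65-fold, SE 0.26, limma adjusted p = 0.00249) and by 1.46 with aminaphtone (limma adjusted p = 0.00183).

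At 6 h the CCN2 signals were 9.53, 9.57 and 10.11 alone and 9.43, 9.76 and 9.96 with aminaphtone, and the groups overlapped. Between 6 and 1 h CCN2 was 3.10-fold lower alone (-1.63 ± 0.26, limma adjusted p = 0.000413) and 4.08-fold lower with aminaphtone (-2.03 ± 0.26, limma adjusted p = 6.99e-05). For CCN1 the same comparisons gave -1.25 (limma adjusted p = 1.74e-05) and -1.38 (limma adjusted p = 7.70e-06).

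ANKRD1, a nuclear ankyrin repeat protein of muscle and activated endothelium, followed another course. It read 8.68, 7.85 and 8.28 at 1 h alone and 8.80, 8.55 and 8.47 with aminaphtone. At 3 h it read 8.56, 9.07 and 8.66 alone and 8.22, 8.56 and 7.87 with aminaphtone. The 1 h and 3 h arrays overlapped under both treatments, and neither the difference of 0.49 alone (limma adjusted p = 0.155) nor that of -0.39 with aminaphtone (limma adjusted p = 0.340) passed. Without replicate 1 of the 1 h control the former was 0.70 and passed (limma adjusted p = 0.0179), and with replicates 2 and 3 left out instead it was 0.08 (limma adjusted p = 0.878).

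The later signals of ANKRD1 were 7.73, 8.29 and 7.87 at 6 h alone and 6.94, 7.19 and 7.28 with aminaphtone, so that the 6 h aminaphtone arrays were the lowest of all 18 and overlapped no other group. From 3 to 6 h with aminaphtone ANKRD1 fell 2.12-fold (-1.08 ± 0.22, limma adjusted p = 0.0488), the 1 gene of 9 past the threshold in a comparison where 0.235% of clusters passed. That call was narrow: it was lost when any of 13 of the 18 arrays was left out, with adjusted p-values up to 0.379 without replicate 2 of the 3 h aminaphtone group, and it held without replicates 1 or 2 of the 1 h control, replicates 1 or 2 of the 3 h control, or replicate 3 of the 3 h aminaphtone group. The fall from 1 to 6 h with aminaphtone was larger than the spread (-1.47 ± 0.22, 2.77-fold, limma adjusted p = 0.000213) and passed in every alternative tried. In the controls ANKRD1 differed by -0.80 between 6 and 3 h, with no overlap between the groups, and missed the threshold (limma adjusted p = 0.138), which it passed without replicate 1 (0.0459) or replicate 2 (0.0439) of the 1 h control.

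AMOTL2 encodes an angiomotin family scaffold that holds YAP1 at junctions and actin. Its 1 h signals were 9.65, 10.21 and 10.02 alone and 9.42, 9.39 and 9.49 with aminaphtone. At 3 h they were 8.20, 8.88 and 8.31 alone and 8.51, 8.97 and 8.38 with aminaphtone. Between those times AMOTL2 was 2.83-fold lower alone (-1.50 ± 0.18, limma adjusted p = 3.84e-05) and 1.76-fold lower with aminaphtone (-0.81 ± 0.18, limma adjusted p = 0.00681). It then stayed low, at 8.77, 8.80 and 8.65 alone and 8.67, 8.67 and 8.65 with aminaphtone at 6 h. Its 6 h signals lay below those of 1 h by 1.22 alone (limma adjusted p = 0.000160) and by 0.77 with aminaphtone (limma adjusted p = 0.00601).

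AJUBA fell and then rose again, the rise being called in the controls only. The arrays read 9.26, 10.08 and 9.52 at 1 h alone and 9.30, 9.21 and 9.28 with aminaphtone, then 7.59, 8.10 and 7.82 at 3 h alone and 8.46, 7.86 and 8.10 with aminaphtone. Its decrease between 1 and 3 h was the largest of the 9 genes in the controls, -1.78 ± 0.18 or 3.44-fold (limma adjusted p = 1.08e-05), and was -1.12 ± 0.18 with aminaphtone (limma adjusted p = 0.000778). At 6 h the signals were 9.15, 9.13 and 8.92 alone and 8.84, 8.76 and 8.87 with aminaphtone, above every 3 h array.

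In the controls the rise of AJUBA from 3 to 6 h was 2.34-fold (1.23 ± 0.18, limma adjusted p = 0.00480), the 1 call of 9 in a comparison where 0.459% of clusters passed. That count was 2 without replicate 1 or without replicate 2 of the 1 h control, ANKRD1 being the addition. Over all clusters the calls then numbered 228 and 305, against 82 with all arrays. With aminaphtone the rise was 0.68 and missed the threshold (limma adjusted p = 0.158), which it passed without replicate 2 of the 1 h control (0.0333). Whether the 2 rises differ is part of the interaction test below, which AJUBA did not pass. Between 6 and 1 h AJUBA differed by -0.20 in the controls with replicates 2 and 3 of the 1 h control both left out. With all arrays the 6 h controls were still 0.55 below the 1 h controls (limma adjusted p = 0.0371). This call was lost without replicate 2 of the 1 h control (-0.32, 0.193), without its replicate 3 (-0.60, 0.0578), or without replicate 1 (-0.59, 0.0639), 2 (-0.58, 0.0666) or 3 (-0.48, 0.138) of the 6 h control. Fitting only the arrays compared lost it as well (limma adjusted p = 0.163).

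**Figure D2:**
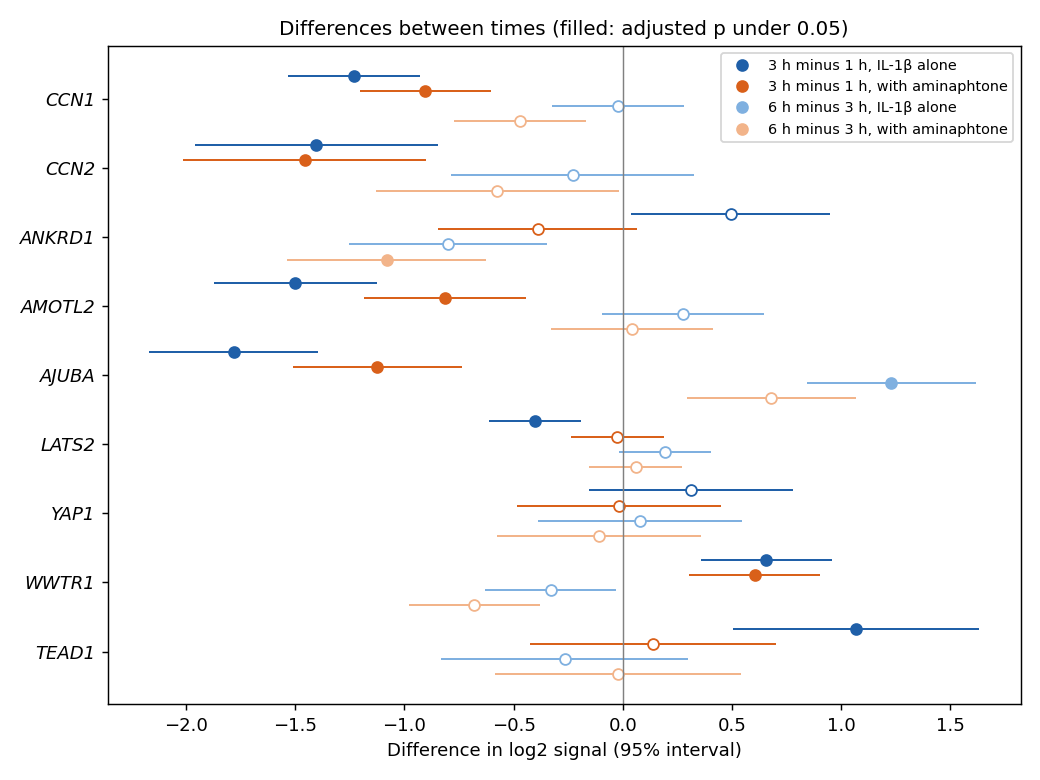
Differences in log2 signal (horizontal axis) between 3 and 1 h and between 6 and 3 h for each gene, alone and with aminaphtone, with 95% intervals from the fit over all 18 arrays. Filled points have a limma adjusted p under 0.05: of the differences between 3 and 1 h 7 are filled alone and 5 with aminaphtone, and of those between 6 and 3 h only AJUBA alone (1.23) and ANKRD1 with aminaphtone (-1.08).

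LATS2, the kinase gene of the set, moved little. Its signals lay between 9.31 and 9.68 at 1 h alone, and the aminaphtone groups kept to 9.34 to 9.40 at 1 h, 9.33 to 9.36 at 3 h and 9.31 to 9.48 at 6 h. The 3 h controls, at 9.11, 9.11 and 9.20, were the lowest group and overlapped none of the others. LATS2 was 1.32-fold lower at 3 h than at 1 h in the controls (-0.40 ± 0.10, limma adjusted p = 0.0155). The call was lost without replicate 3 of the 1 h control (0.0711) or replicate 1 of the 3 h control (0.0570). Fitting only the arrays compared also lost it (limma adjusted p = 0.339). With aminaphtone the same difference was -0.02, with a 95% interval of -0.24 to 0.19.

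The coactivator genes differed from each other. YAP1 read 10.87, 9.62 and 10.57 in the 1 h controls, whose replicate 2 was the low array, and between 10.39 and 11.07 on the other 15 arrays. None of the 6 comparisons between times called YAP1, with differences from -0.13 to 0.39 and every 95% interval spanning 0. Without replicate 1 of the 1 h control YAP1 passed between 3 and 1 h (0.57, limma adjusted p = 0.0393) and between 6 and 1 h (0.65, limma adjusted p = 0.0160), with the low replicate 2 still among the controls. With replicates 2 and 3 left out instead these differences turned to -0.21 and -0.13, and neither passed.

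WWTR1 was higher at 3 h than at 1 h under both treatments. It read 10.96, 10.21 and 10.79 at 1 h alone and 10.82, 10.86 and 10.86 with aminaphtone. All 3 h arrays were higher, at 11.21, 11.33 and 11.38 alone and 11.30, 11.50 and 11.54 with aminaphtone. The rise was 0.66 ± 0.14 alone (1.58-fold, limma adjusted p = 0.00649) and 0.60 ± 0.14 with aminaphtone (1.52-fold, limma adjusted p = 0.0119). The value in the controls was 0.44 without replicate 2 of the 1 h control and still passed, and 0.35 with replicates 2 and 3 both left out. Fitted on only the arrays compared, the rise in the controls no longer passed (limma adjusted p = 0.218). With aminaphtone the call was lost without replicate 1 of the 1 h group (0.0544).

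At 6 h the WWTR1 signals were 11.01, 10.93 and 11.01 alone and 10.80, 10.77 and 10.73 with aminaphtone, below every 3 h array. The decrease from 3 h with aminaphtone, -0.68, missed the threshold (limma adjusted p = 0.0624), which it passed without replicate 1 (0.0151) or replicate 2 (0.00306) of the 1 h control. With those arrays left out the call for ANKRD1 was kept. The same decrease in the controls was -0.33 (limma adjusted p = 0.450).

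TEAD1, a DNA-binding partner of both coactivators, read 9.86, 8.37 and 9.02 in the 1 h controls, and between 9.78 and 10.50 on all other arrays. The 3 h controls, at 10.38, 9.93 and 10.14, exceeded the 1 h controls by 1.07 ± 0.27 (limma adjusted p = 0.0157). The call was lost without replicate 2 (0.71, 0.0635) or replicate 3 (1.04, 0.0529) of the 1 h control or replicate 1 of the 3 h control (0.95, 0.0864). It was also lost with only the arrays compared (limma adjusted p = 0.204). With both replicates 2 and 3 of the 1 h control left out the difference was 0.29. With aminaphtone, where the 1 h arrays were 10.16, 9.79 and 9.90, the difference was 0.14, with a 95% interval of -0.43 to 0.70. TEAD1 at 6 h read 9.78, 9.86 and 10.02 alone and 9.86, 10.14 and 10.19 with aminaphtone.

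Between 6 and 1 h, 5 of the 9 genes passed in the controls against 23.7% of all clusters, with CCN1, CCN2, AMOTL2 and AJUBA lower and TEAD1 0.80 higher (limma adjusted p = 0.0381). TEAD1 no longer passed without replicate 2 (0.44, 0.209) or replicate 3 (0.77, 0.0970) of the 1 h control, or without replicate 1 (0.0673), 2 (0.0793) or 3 (0.125) of the 6 h control. With replicates 2 and 3 of the 1 h control both left out its difference was 0.02. The limma adjusted p was 0.0521 with each array centred on its median and 0.183 with only the arrays compared. The count was 7 without replicate 1 of the 1 h control, and 3 without its replicate 3 or without any 1 of the 6 h controls. Over all clusters the calls numbered 4227 with all arrays, 7138 without replicate 1 of the 1 h control and 2596 without replicate 3 of the 6 h control. With aminaphtone 4 of 9 passed against 15.4% of all clusters, all lower: CCN1, CCN2, ANKRD1 and AMOTL2. CCN1, CCN2 and AMOTL2 passed between 3 and 1 h and between 6 and 1 h under both treatments and in every alternative tried, and AJUBA did so between 3 and 1 h. The 9 genes' median difference between 3 and 1 h was -0.40 alone and -0.39 with aminaphtone, beside -0.01 and 0.03 over all clusters tested.

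Aminaphtone was compared with its control at each time. At 1 h 0 of the 9 genes passed limma at the adjusted threshold, against 0.0840% of all clusters, and 3 had an unadjusted p under 0.05 against 28.9% of all clusters. AMOTL2 was 0.52 lower with aminaphtone (1.44-fold, limma adjusted p = 0.148). Its groups did not overlap, 1 of 9 genes against 13.0% of all clusters. TEAD1 stood 0.86 higher (1.82-fold, limma adjusted p = 0.148) and YAP1 0.48 higher (limma adjusted p = 0.168), with overlapping groups in each case. CCN2 differed by 0.38, with a 95% interval of -0.18 to 0.93, and CCN1 by 0.01, with an interval of -0.29 to 0.31.

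Arrays with the same replicate number deviated together at 1 h, so the comparison was also fitted with the number as a block. In that fit 3 of the 9 genes passed, against 12.4% of all clusters: CCN2 higher (0.38, limma adjusted p = 0.0420), AMOTL2 lower (-0.52, limma adjusted p = 0.0360) and TEAD1 higher (0.86, limma adjusted p = 0.0368). The 1 h result also turned on a single control array. Without replicate 1 of the 1 h control 6 of the 9 genes passed, ANKRD1 (0.54), YAP1 (0.74), WWTR1 (0.34) and TEAD1 (1.25) higher and AMOTL2 (-0.68) and AJUBA (-0.53) lower. Across all clusters that omission raised the count from 15 to 8611. When replicates 2 and 3 were left out instead, 0 of the 9 passed. The differences then were 0.09 for TEAD1, -0.04 for YAP1, -0.11 for WWTR1, -0.08 for ANKRD1, -0.21 for AMOTL2 and 0.00 for AJUBA, so that those of YAP1, WWTR1 and ANKRD1 turned negative.

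At 3 h 0 of the 9 genes passed, against 0.0280% of all clusters, and 2 had an unadjusted p under 0.05 against 6.35% of all clusters. CCN1 was 0.34 higher with aminaphtone (95% interval 0.04 to 0.64, limma adjusted p = 0.698), and ANKRD1 was 0.55 lower (95% interval -1.001 to -0.09, limma adjusted p = 0.637). The groups overlapped for both. CCN2, AJUBA and LATS2 differed by 0.33, 0.30 and 0.20, each with an interval that spanned 0. The LATS2 groups did not overlap, 1 of 9 genes against 12.6% of all clusters.

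At 6 h 0 of 9 passed, against 0.101% of all clusters, and 1 had an unadjusted p under 0.05 against 3.87% of all clusters. That gene was ANKRD1, 1.78-fold lower with aminaphtone (-0.83, 95% interval -1.28 to -0.37, limma adjusted p = 0.402), with every aminaphtone array below every control. AJUBA (-0.25) and WWTR1 (-0.21) did not overlap between groups either, which made 3 of 9 genes against 15.2% of all clusters. CCN1 and CCN2 differed by -0.11 and -0.02, with intervals of -0.41 to 0.19 and -0.57 to 0.54.

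Averaged over the 3 times, 0 of 9 passed against 0.751% of all clusters, and 2 had an unadjusted p under 0.05 against 18.5% of all clusters. These were ANKRD1 (-0.35, limma adjusted p = 0.192) and TEAD1 (0.33, limma adjusted p = 0.271). Without replicate 1 of the 1 h control TEAD1 passed (0.46, limma adjusted p = 0.0171), and with replicates 2 and 3 left out instead it stood at 0.07 (limma adjusted p = 0.900). The interaction of treatment and time tested whether aminaphtone changed the time course. In it 0 of 9 passed against 0.0336% of all clusters, with adjusted p-values from 0.537 for ANKRD1 to 0.844 for CCN2, and 4 genes (ANKRD1, AMOTL2, AJUBA and LATS2) had an unadjusted p under 0.05 against 8.65% of all clusters. The count was 3 without replicate 1 of the 1 h control: ANKRD1 (0.0148), TEAD1 (0.0155) and AMOTL2 (0.0497). That omission raised the count over all clusters from 6 to 2901. A time difference called under one treatment and not the other, as for LATS2 and TEAD1, is thus not shown to differ between treatments with all arrays in.

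**Figure D3:**
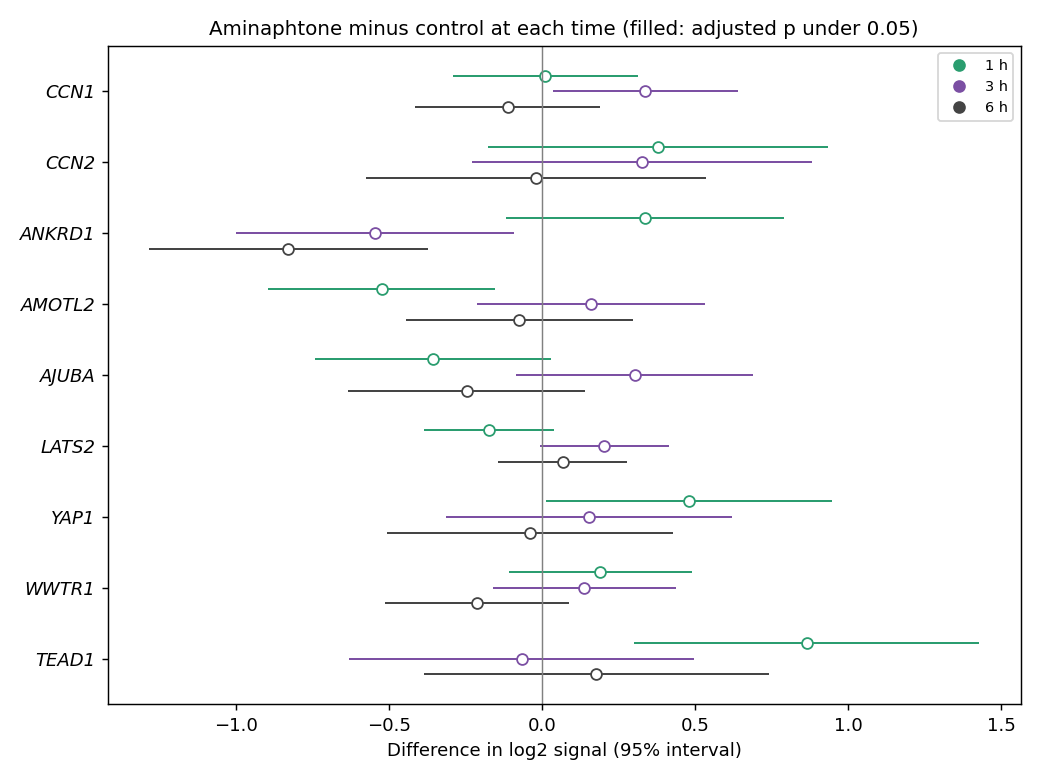
Aminaphtone minus control in log2 signal (horizontal axis) at 1, 3 and 6 h for each gene, with 95% intervals from the fit over all 18 arrays. No point is filled, since no limma adjusted p was under 0.05 in that fit, which had no replicate block. ANKRD1 at 6 h (-0.83) and TEAD1 at 1 h (0.86) lie farthest from 0.

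The spread within groups was not the same for all 9 genes. CCN1 varied by 0.02 to 0.05 (SD, n = 3) in the 1 h groups and by 0.26 and 0.31 in the 3 h groups. CCN2 had its largest SDs at 3 h too, 0.51 alone and 0.53 with aminaphtone. In CCN1, CCN2, ANKRD1 and AMOTL2, replicate 2 was the highest array of both 3 h groups, a pattern found in 16.4% of all clusters tested. Over all clusters tested the deviations of the replicate 2 arrays of the 3 h groups correlated at 0.481, against -0.0797 and -0.00469 for replicates 1 and 3. LATS2 kept an SD of 0.01 to 0.20 in every group. For YAP1 and TEAD1 the largest SDs, 0.65 and 0.75, were those of the 1 h controls.

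**Figure D4:**
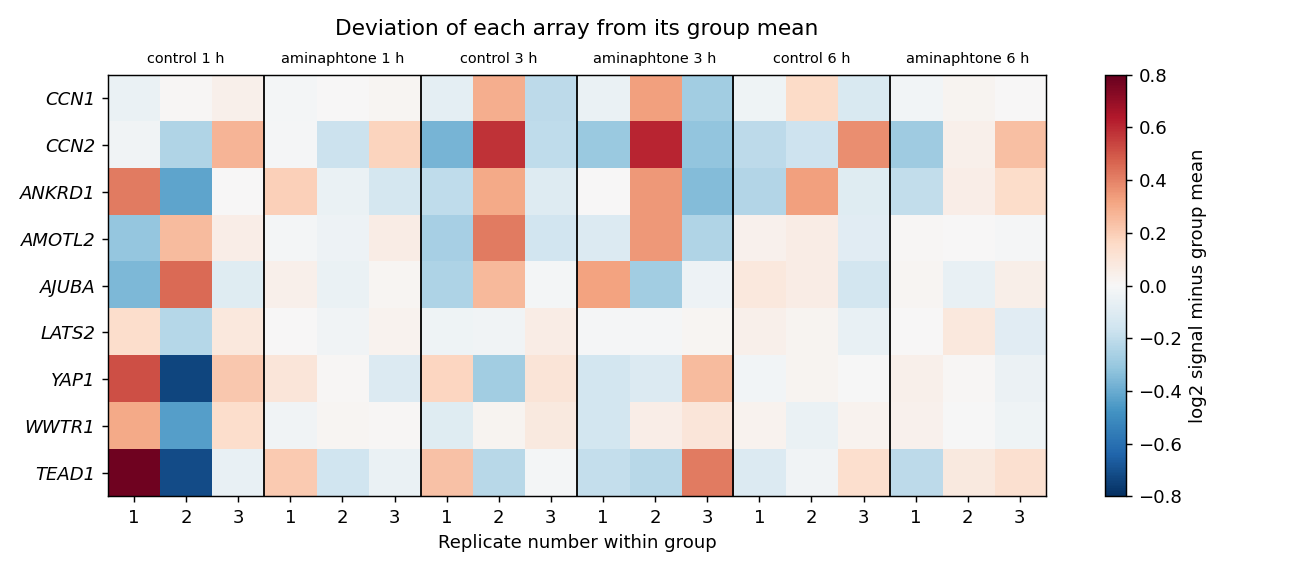
Deviation of each array from its group mean in log2 signal (colour, from -0.8 in blue to 0.8 in red) for the 9 genes (rows) on the 18 arrays (columns, by group and replicate number). Replicate 2 of both 3 h groups is red for CCN1, CCN2, ANKRD1 and AMOTL2, and replicates 1 and 2 of the 1 h control are red and blue for YAP1, WWTR1 and TEAD1.

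Likeness of pattern was measured as the root mean square difference between 2 genes' group means, each centred on its own average, over the 6 groups. Among the 9, AMOTL2 was nearest to CCN1 (0.24 log2 units), and CCN2 lay at 0.24 from CCN1. YAP1 lay at 0.24 from TEAD1 and at 0.25 from WWTR1. ANKRD1 had no near neighbour among the 9, its smallest difference being 0.49, from WWTR1. Between the targets and the upstream genes the difference reached 1.04, for CCN2 and TEAD1.

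Over 15577 other genes, those closest to CCN1 were DAPK1, a calmodulin-regulated death-associated kinase (0.06), ZNF618 (0.07) and PTGER4, a prostaglandin E2 receptor (0.09), against a median of 0.60. Closest to CCN2 were LIPH, a phospholipase (0.09), TCP11L2 (0.10) and JUN, a subunit of the AP-1 factor (0.12). ITPKB, CDC25B and GPRC5C lay within 0.08 to 0.09 of AMOTL2. AJUBA's nearest genes, TFAP2A, LRIG3 and CPEB2, were at 0.18 to 0.19, and those of ANKRD1, TM4SF18, ACAT2 and SEMA3A, at 0.19 to 0.20. The group means of TEAD1 were matched within 0.07 to 0.08 by RIOK1, ZNF28 and RBM27. These are descriptions over 6 group means that share arrays, and the TEAD1 pattern is set largely by the 1 h controls.

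Other genes of the pathway were taken as 5 lists, chosen with earlier results of these data known. Of 26 further YAP/TEAD target genes tested, 4 rose and 3 fell between 1 and 3 h in the controls. That was 26.9%, against 11.3% of all clusters. The list's median was 0.14, beside -0.01 over all clusters. NUAK2, a kinase that acts on actomyosin, fell 4.05-fold (-2.02, limma adjusted p = 3.42e-07), a larger decrease than that of any of the 9 genes. NT5E, an ectonucleotidase (0.86), and TGFB2, a growth factor (0.92), rose. Of the same 26 with aminaphtone 1 fell (3.85% against 9.44% of all clusters), NUAK2 (-1.58, limma adjusted p = 4.20e-06), and none rose. This count was 3 without replicate 2 of the 1 h control and 2 without replicate 2 of the 3 h aminaphtone group. The former omission gave 2663 calls over all clusters, against 1685 with all arrays. Between 6 and 1 h 5 rose and 5 fell alone (38.5% against 23.7% of all clusters). With aminaphtone 3 rose and 4 fell (26.9% against 15.4% of all clusters). ASAP1 (1.32 alone and 0.92 with aminaphtone) and NT5E (1.52 and 0.70) were among those that rose. The called genes of this list thus went in both directions. NT5E with aminaphtone no longer passed between 6 and 1 h without replicate 3 of the 6 h aminaphtone group (0.56, 0.0660).

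Among 27 Hippo kinases, scaffolds and upstream regulators, the median difference between 3 and 1 h in the controls was 0.23. Of these genes 5 rose and none fell, 18.5% against 11.3% of all clusters. They included FRMD6, a FERM domain scaffold upstream of the kinases (1.61, 3.05-fold, limma adjusted p = 4.28e-05), WWC1, the KIBRA scaffold (0.66), and MAP4K4, a kinase that phosphorylates LATS (1.11). With aminaphtone 5 rose and 2 fell, 25.9% against 9.44% of all clusters. Among them were WWC1 (0.82) and LIMD1, a LIM relative of AJUBA (0.89), upward, and the protocadherin gene FAT4 (-1.42) downward. These 7 calls were 4 without replicate 1 of the 1 h or of the 3 h aminaphtone group. Over all clusters the calls then numbered 796 and 829, against 1685 with all arrays. Between 6 and 1 h 8 rose and 3 fell alone (40.7% against 23.7% of all clusters). With aminaphtone 5 rose and 4 fell (33.3% against 15.4% of all clusters). MAP4K4 was then 1.61 higher alone and 1.33 higher with aminaphtone, and FAT4 with aminaphtone 1.90 lower.

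Of 6 other TEAD factors and cofactors tested, TEAD2 (-0.94, limma adjusted p = 0.00402) and VGLL4 (-0.43, limma adjusted p = 0.0118), a cofactor that competes with YAP1 for TEAD factors, fell between 1 and 3 h in the controls, in the opposite direction to TEAD1. These 2 calls were 33.3% of the 6, against 11.3% of all clusters. With aminaphtone none of the 6 passed between those times, against 9.44% of all clusters. By 6 h, against 1 h, only TEAD2 passed, alone (-1.12) and with aminaphtone (-0.86). This was 16.7% of the 6, against 23.7% of all clusters alone and 15.4% with aminaphtone. The 4 other CCN family genes missed the threshold in each comparison, in the fit of all arrays without a replicate block. The smallest p-values among them were those of CCN3 for aminaphtone averaged over times (-0.26, limma adjusted p = 0.0783, or 0.0484 with the block and 0.0171 without replicate 1 of the 1 h control) and of CCN6 between 3 and 1 h with aminaphtone (0.25, limma adjusted p = 0.147). CCN1 and CCN2 were thus the family members with called differences. The call for VGLL4 was lost without replicate 3 of the 1 h control (0.0569) or replicate 3 of the 3 h control (0.0725). With replicates 2 and 3 of the 1 h control both left out, TEAD2 and VGLL4 stood at -0.68 and -0.40 between 3 and 1 h.

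The actin-regulated factor SRF and its MRTF cofactors share several targets with YAP1. Of 24 of their target genes tested, 2 rose and 1 fell between 1 and 3 h in the controls: ACTN1, an actin crosslinker (0.53), CALD1, a regulator of actomyosin (1.15, limma adjusted p = 0.0235), and SRF itself (-0.83). These 3 calls were 12.5% of the list, near the 11.3% of all clusters. With aminaphtone ACTN1 (0.60) and PDLIM7 (0.70) rose and FILIP1L (-0.34, limma adjusted p = 0.0396) fell, 12.5% against 9.44% of all clusters. Between 6 and 1 h 3 rose and 5 fell alone (33.3% against 23.7% of all clusters). With aminaphtone 1 rose and 4 fell (20.8% against 15.4% of all clusters). SRF (-1.16) and FHL2, a LIM cofactor (-0.80), were among those lower in the controls, and FHL2 was 0.99 lower with aminaphtone. SRF between 3 and 1 h was lost without replicate 1 of the 3 h control (0.0611). With replicates 2 and 3 of the 1 h control both left out SRF stood at -0.54. FILIP1L with aminaphtone, close to the filter, was lost between those times in 11 of 23 alternatives, with adjusted p-values up to 0.216 without replicate 1 of the 1 h aminaphtone group.

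**Figure D5:**
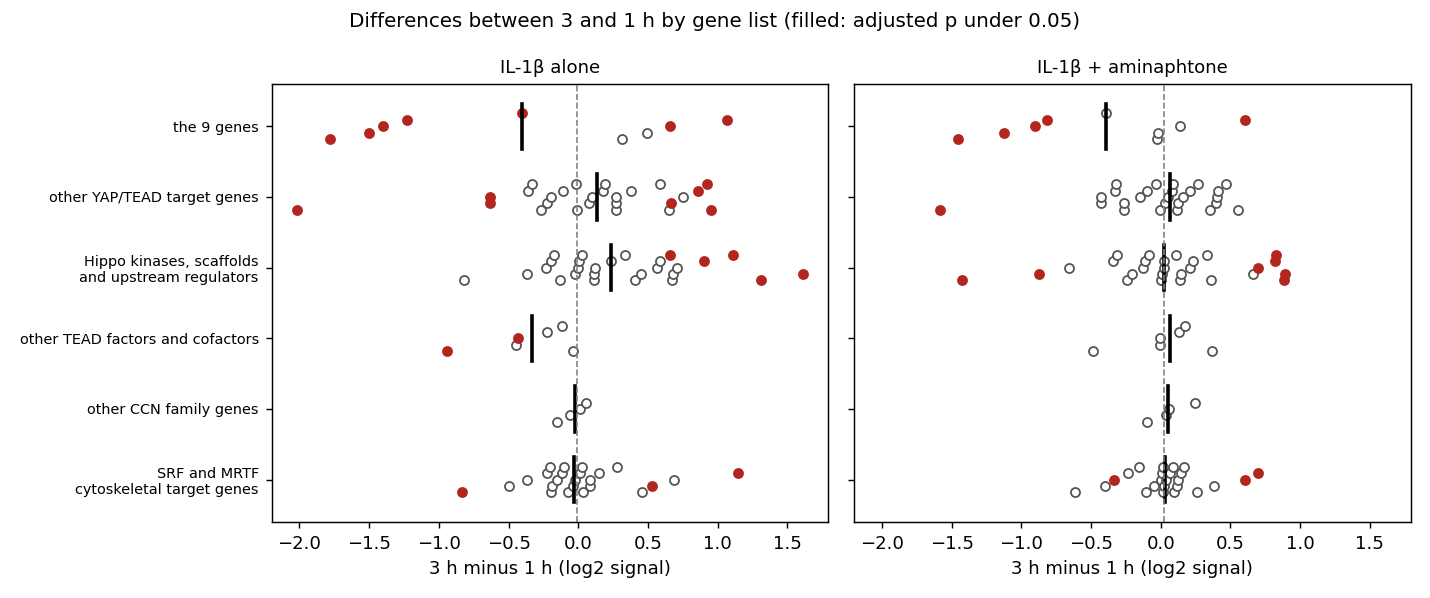
Differences between 3 and 1 h in log2 signal (horizontal axis) for the 9 genes and for each of the 5 other lists, alone (left) and with aminaphtone (right). Each circle is a gene, filled where its limma adjusted p is under 0.05, the black bars are list medians and the dashed line is the median of all clusters tested. The median of the 9 genes is -0.40 alone and -0.39 with aminaphtone, and the other lists' medians lie between -0.33 and 0.23.

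A few of these other genes were lower with aminaphtone. Averaged over times 2 of the 26 further targets (7.69%) and 2 of the 24 SRF and MRTF targets (8.33%) passed, against 0.751% of all clusters. At 6 h 1 of the 26 further targets passed, 3.85% against 0.101% of all clusters. Of the averaged calls over all clusters 69 were higher and 65 lower. EDN1, the gene of endothelin-1 and a YAP/TEAD target, was 0.92 lower averaged over times (1.89-fold, limma adjusted p = 0.000322), a call kept in all 25 alternatives. At 6 h it was 0.98 lower (limma adjusted p = 0.0444), a call that was lost in 15 of 25 alternatives, with adjusted p-values up to 0.259 without replicate 3 of the 6 h aminaphtone group. NUAK2 (-0.44, limma adjusted p = 0.0268), the LIM protein gene TGFB1I1 (-0.58, limma adjusted p = 0.00498) and the smooth muscle actin-binding gene TAGLN (-0.55, limma adjusted p = 0.0212) were lower averaged over times. The call for NUAK2 was lost in 11 of 25 alternatives, that for TAGLN in 4, with adjusted p-values up to 0.0607 without replicate 3 of the 6 h aminaphtone group, and that for TGFB1I1 in none. For NUAK2 the highest, 0.121, came with replicates 2 and 3 of the 1 h control both left out. Apart from these, no gene of the 5 lists passed in a treatment comparison in the fit of all arrays without a replicate block. With the block, 6 of the 26 further targets, 5 of the 27 Hippo genes and 3 of the 24 SRF and MRTF targets passed at 1 h, against 12.4% of all clusters.

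These list counts rested on the 1 h controls as the member counts did. Without replicate 1 of that group the calls between 3 and 1 h in the controls numbered 14 of the further targets, 14 of the Hippo genes, 4 of the TEAD factors and 9 of the SRF and MRTF targets, and over all clusters 5687 against 2022 with all arrays. Without replicate 1 of the 3 h control, with 979 over all clusters, they were 4 of the further targets, 3 of the Hippo genes and 1 of the SRF and MRTF targets. Between aminaphtone and control at 1 h, omission of the same replicate 1 of the 1 h control gave 16, 19, 5, 1 and 15 calls in the 5 lists, in the order further targets, Hippo genes, TEAD factors, CCN family and SRF and MRTF targets, while the count over all clusters was 8611. Averaged over times, with 3404 calls over all clusters, it gave 10 of the further targets, 10 of the Hippo genes and 7 of the SRF and MRTF targets. For 6 against 1 h in the controls, leaving out 1 array at a time gave 5 to 17 of the further targets and 6 to 17 of the Hippo genes, the lowest without replicate 3 and replicate 1 of the 6 h control and both highest without replicate 1 of the 1 h control, and 4 to 9 of the SRF and MRTF targets, the lowest without any 1 of the 6 h controls. With aminaphtone the further targets ran from 3 to 9 and the SRF and MRTF targets from 2 to 7, the latter lowest without replicate 3 of the 6 h group. NUAK2 and FRMD6 passed between 3 and 1 h in the controls in all 26 alternatives. The other list genes named for that comparison no longer passed with only the arrays compared. These were NT5E, TGFB2, WWC1, MAP4K4, TEAD2, VGLL4, ACTN1, SRF and CALD1. CALD1, which overlapped between groups, was lost in 6 of 26: it was at 0.82 (limma adjusted p = 0.107) without replicate 2 of the 1 h control, and was also lost without its replicate 3 (0.0831) or without replicate 1 (0.135) or 3 (0.0652) of the 3 h control. TGFB2 and NT5E, at 0.37 and 0.52, no longer passed with replicates 2 and 3 of the 1 h control both left out. CALD1 then stood at 0.32.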

How the data were processed

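Each of the 18 Affymetrix Human Gene 1.0 ST arrays has 1 log2 value per transcript cluster, deposited by the authors after RMA in Affymetrix Expression Console, per the submitters' processing notes. RMA corrects background, makes the arrays' distributions alike and summarises probes. Its version, which arrays were normalized together and the genome build of the annotation are not given in the sources used here. Promoter coordinates are RefSeq's own.

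Of 28869 transcript clusters 21062 were annotated, 19310 with 1 symbol (19279 matched RefSeq by gene ID), 1752 with several and 7807 with none. Those annotated and brighter on average than the 25th percentile of all clusters (5.52) entered the tests, 17853 in all. The fit was limma's (version 3.58.1 under R 4.3.3) over all 6 groups, 1 mean each, leaving 12 residual and adding 4.86 prior degrees of freedom, two-sided, with Benjamini-Hochberg adjustment over all clusters tested and a threshold of 0.05, for 11 comparisons. The code was tested on simulated data. Precision is limited by the number of arrays, for which there is no read depth.

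Of each other gene list, up to 3 genes past the threshold by smallest p were named per comparison, or the 2 with the smallest p where none passed. For members whose group means span over 1 log2 unit the 3 nearest genes by pattern were named. Members and lists were chosen with earlier results of these data known. Some genes of the lists were not analysed here.

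Whether replicate numbers pair arrays was checked from the correlation of same-numbered arrays' deviations from their group means over all clusters, since the labels say nothing of it. These were 0.726, 0.406 and 0.292 for the 1 h treatment comparison and 0.268, 0.327 and 0.239 for 3 against 1 h in the controls, where the numbers were taken as pairs. Elsewhere at least 1 correlation was under 0.1. The alternatives were other filters on low signal, centring, a trended and robust variance, the replicate block, only the arrays compared, and each array left out in turn.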

Additional observations from a re-analysis of the deposited data

How the results depend on the processing

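The decreases of CCN1, CCN2, AMOTL2 and AJUBA between 1 and 3 h of IL-1β alone kept their direction and call in all 26 alternatives, with ranges of -1.37 to -1.13, -1.69 to -1.22, -1.71 to -1.19 and -1.96 to -1.42. No called value of the 9 genes changed sign. The alternatives with the 25th percentile over annotated clusters alone and with replicates 2 and 3 of the 1 h control both left out were chosen after seeing the data.

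Counts of the 9 genes moved by over 1.5 times in these cases. With the replicate block 3 passed at 1 h, 2 averaged over times, against 4.30% of all clusters (CCN2 0.23, 0.0476, and ANKRD1 -0.35, 0.0420) and 0 between 6 and 3 h with aminaphtone. The block changed no other call of the 9 genes, and the numbers did not pair the 3 and 6 h arrays. Between 6 and 3 h with aminaphtone 0 also passed with no filter, with each array centred on its median and with the trended and robust variance, and 2 passed with only the arrays compared. Fitting only the arrays compared left 4 in the controls between 3 and 1 h and 3 between 6 and 1 h. Those lost were LATS2, WWTR1 and TEAD1 in the former and AJUBA and TEAD1 in the latter. Smaller moves were 7 to 5 between 3 and 1 h in the controls with replicates 2 and 3 of the 1 h control left out, 5 to 4 between 6 and 1 h with centring, and 4 to 5 between 6 and 1 h with aminaphtone with only the arrays compared. With replicates 2 and 3 of the 1 h control both left out 3 remained between 6 and 1 h. Over all clusters, fitting only the arrays compared moved the counts in both directions. Between 3 and 1 h the count went from 2022 to 221 in the controls and from 1685 to 2741 with aminaphtone. Between 6 and 1 h it went from 4227 to 1089 in the controls and from 2741 to 5230 with aminaphtone. The causes were not tested.

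With 1 array left out at a time the counts ran from 0 to 6 at 1 h, from 0 to 1 averaged over times and from 0 to 3 for the interaction, and stayed at 0 at 3 h and 6 h. The highest of these came without replicate 1 of the 1 h control. Calls over all clusters were then 8611, 3404 and 2901, against 15, 134 and 6 with all arrays. In the controls they ran from 5 to 9 between 3 and 1 h, 1 to 2 between 6 and 3 h and 3 to 7 between 6 and 1 h. With aminaphtone they ran from 4 to 5, 0 to 3 and 4 to 5. The calls over all clusters moved too. Between 6 and 3 h with aminaphtone they ran from 3 to 248, against 42 with all arrays. Between 6 and 1 h in the controls they reached 7138, against 4227. Over all clusters the count between 3 and 1 h in the controls, 2022, was 5687 without replicate 1 of the 1 h control and 221 with only the arrays compared. Averaging several clusters per gene was not run, since each of the 9 genes has 1, and was not run for the other lists. Averaged and interaction results use all arrays, so fitting only the arrays compared gives no value for them. The number of arrays, 3 per group, limits what treatment differences could pass.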
